A study of Homo sapiens with 6 samples.

Results

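Semaphorins, ephrins, netrins, slits and their receptors were followed in UMUC3 cells, an established line of human bladder carcinoma, that had grown for 14 days in the bladders of C57 nude mice. Members were chosen by a rule on gene symbols, which uses no measured value but was set with earlier results of these data known: SEMA3 to SEMA7, plexins, neuropilins, ROBO1 to ROBO4, SLIT1 to SLIT3, netrins, UNC5 receptors, DCC, EPH receptors and ephrins. Among plexins, PLXNA4 lies outside this rule. The rule found 64 genes among the 21503 of the deposited count table. Of them, 61 were among the 19430 genes left for testing after a filter on low counts. Bulk RNA-seq had been made of 3 libraries of UMUC3 cells with knockdown of GANAB and 3 libraries of control UMUC3 cells. GANAB encodes the catalytic subunit of glucosidase II, which trims glucose from N-glycans of new glycoproteins in the endoplasmic reticulum. The labels do not say how the knockdown was made, what the control cells carried or whether each library came from its own mouse, so p-values measure the spread between these libraries, which may be technical. Nude mice lack a thymus and keep their own vessels, nerves, stroma and innate immune cells in the bladder, and the labels do not say whether mouse reads were set apart from human reads.

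Guidance cues were first described as signals that steer growing axons, and the same molecules regulate cell adhesion, migration, vessel growth and tissue boundaries outside the nervous system. Secreted class 3 semaphorins bind neuropilins, which signal through plexins, whereas most membrane-bound semaphorins bind plexins directly; slits bind ROBO receptors, and netrins bind DCC or UNC5 receptors. Ephrins are held in the membrane and bind EPH receptor tyrosine kinases on neighbouring cells, with signals passing into both cells. Most of these proteins enter the secretory pathway and carry N-glycans.

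GANAB itself, the check of the labels, had 231, 238 and 231 CPM in the knockdown libraries, against 685, 825 and 661 CPM in the controls (edgeR log2 fold change -1.63, SE 0.141, adjusted p = 0.00239). CPM is the count relative to library size after TMM scaling, a correction for library composition. Total counts ran between 36619291 and 40039584 in the knockdown libraries and between 11737837 and 36381218 in the controls. A count of 3 was worth between 0.0707 and 0.0764 CPM in the knockdown libraries and between 0.11 and 0.247 CPM in the controls. The controls were less alike than the knockdown libraries, with a biological coefficient of variation of 10.7% among knockdown libraries and 53.5% among controls. In control library 1 the mitochondrial transcript MT-RNR2 took 17.5% of the counts. Keratin genes KRT8 and KRT18 were abundant in every library, while CDH1, an epithelial cadherin, stayed at or under 0.525 TPM (the deposited level, scaled for gene length and library total). These keratins led 11 urothelial and epithelial markers, which summed to 396 to 419 TPM in knockdown libraries and 178 to 475 TPM in controls. KRT7 had 11.3 to 43.5 TPM, while EPCAM reached at most 1.14 TPM and GATA3 at most 2.68 TPM. None of the 10 tested had an edgeR adjusted p under 0.05.

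Markers of other cells were checked because vessels, nerves and muscle use guidance genes too. Of 8 smooth muscle markers, 4 rose in edgeR (ACTA2, CNN1, MYH11 and TAGLN), where 4.59% of all genes tested rose. The 8 summed to 935 to 997 TPM in the knockdown libraries, against 214 to 435 TPM in the controls. By TPM the median log2 fold change of all genes was itself between 0.20 and 0.28. The 12 endothelial markers summed to 69.8 to 76.4 TPM in knockdown libraries and 44.9 to 169 TPM in controls, most of it EGFL7, and PECAM1 and VWF stayed under 0.7 TPM in every library. CDH5, another defining endothelial marker, had 0.844, 1.12 and 0.951 TPM in the knockdown libraries, against 0.222, 0 and 0 TPM in the controls. TIE1, a more abundant one, had 7.44, 10.1 and 8.95 TPM in the knockdown libraries, against 10.0, 45.5 and 7.06 TPM in the controls. None of the 9 endothelial markers tested passed in edgeR (adjusted p = 0.0566 for CDH5 and 0.166 for TIE1). The 12 Schwann cell and neuron markers summed to 16.7 to 20.9 TPM in knockdown libraries and 8.8 to 16.5 TPM in controls. They were led by SNAP25, at 9.87 to 14.2 TPM in knockdown libraries and 4.1 to 10.9 TPM in controls. Of the 12, 8 stayed under 1 TPM in every library, with S100B and ELAVL4 at 0 in all 6, and none of the 5 tested passed in edgeR. The 10 fibroblast markers summed to 112 to 124 TPM in knockdown libraries and 43.3 to 120 TPM in controls. They were led by THY1, at 46.9 to 51.9 TPM in knockdown libraries and 26.7 to 110 TPM in controls. COL1A2 had 30.0 to 43.8 TPM in knockdown libraries and 2.64 to 21.9 TPM in controls. COL1A1 had 19.9 to 21.7 TPM in knockdown libraries and 3.04 to 15.3 TPM in controls. Of the 8 tested, PDGFRB alone passed in edgeR, higher in knockdown, and LUM was at 0 in all 6 libraries. The 8 leukocyte markers summed to 46.8 to 50.8 TPM in knockdown libraries and 52.9 to 209 TPM in controls. Most of this was CD68, at 42.5 to 47.1 TPM in knockdown libraries and 51.6 to 207 TPM in controls. Of the 8, 4 stayed under 1 TPM in every library, PTPRC and CSF1R among them, and none of the 5 tested passed in edgeR. The part of these cells in the results on guidance genes was not tested, and in bulk RNA a change in the number of cells of a type and a change in RNA per cell cannot be told apart.

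With knockdown, 12 of the 61 tested guidance genes rose and 3 fell (edgeR quasi-likelihood test, adjusted p under 0.05 over all genes tested). That is 24.6% of the tested members, against 8.31% of all 19430 genes tested; by direction, 19.7% of the members rose, against 4.59% of all genes, and 4.92% fell, against 3.72% of all genes. The median log2 fold change was 0.52 over the members and 0.03 over all genes tested. A value above 0 was found for 45 of the 61 members, and for 10118 of the 19430 genes tested. SLIT3, SEMA3B, EPHA5, SEMA3A, UNC5B, SEMA6A, PLXNB3, SEMA6C, PLXNA3, NTN1, NRP2 and PLXNB1 rose, in order of size. EFNB2, EFNA5 and SEMA6B fell. Of the 32 ligands tested, 6 rose and 3 fell, and of the 29 receptors tested, 6 rose and none fell (edgeR; 1 was lower at an unadjusted p under 0.05, and DESeq2 called 1 lower). The 3 knockdown libraries lay wholly above the 3 controls for 25 members (21.9% of all genes tested) and wholly below them for 5 (15.7% of all genes), together 49.2% of the members, against 37.6% of all genes.

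**Figure D1:**
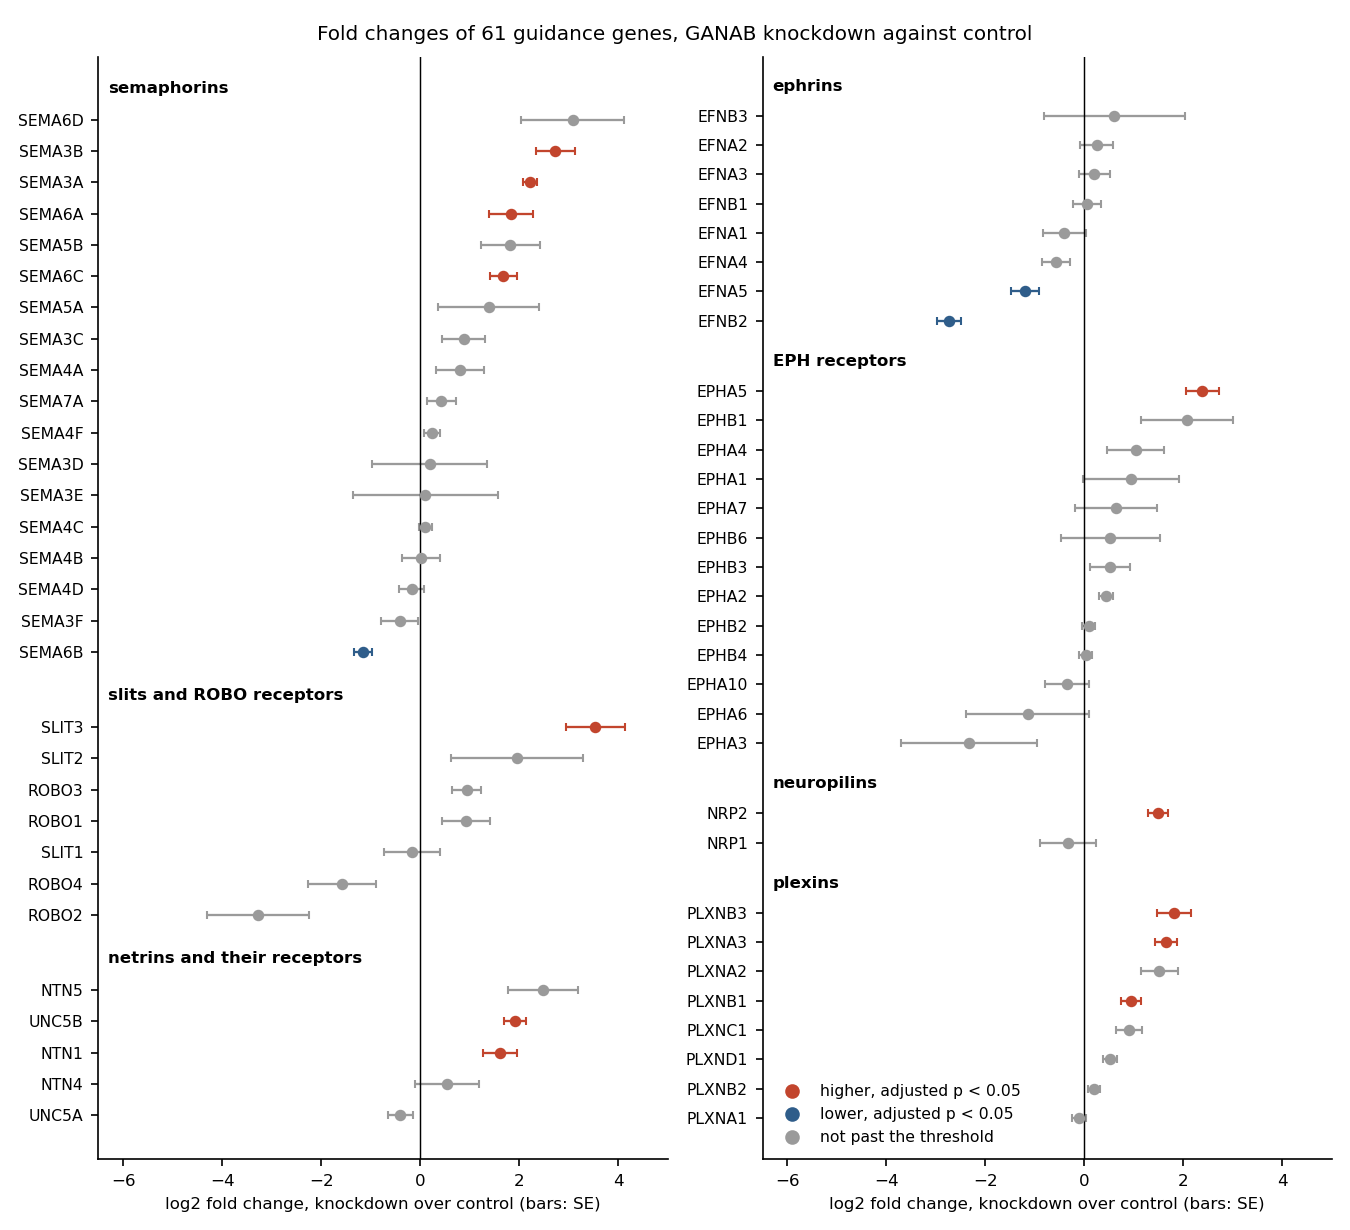
Log2 fold change, knockdown over control (horizontal axis), of the 61 tested guidance genes by family; points are edgeR estimates, bars are 1 SE, and colours mark genes past the adjusted threshold of 0.05. The 12 genes that rose sit between 0.94 and 3.54 on the log2 scale, and the 3 that fell are EFNB2 at -2.74, EFNA5 at -1.21 and SEMA6B at -1.16.

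When any 1 of the 3 knockdown libraries was left out, 12 of the 15 calls were lost, and UNC5B was lost in 2 of those 3 fits. These fits called 2 members (0.314% of all genes called) without knockdown library 1, 3 members (0.597% of all genes) without library 2 and 2 members (0.473% of all genes) without library 3. SEMA3A and EFNB2 alone passed whichever of the 6 libraries was left out, and in all 10 other settings. Control library 2 was the control farthest from the other 2 for 30 of the 61 members (49.2%, and for 48.1% of all genes). Without it, 29 members were called (47.5% of those tested), against 29.0% of all genes. DESeq2 called 23 of the 61 (18.8% of all genes) and limma-voom 13 (8.34%). By TPM, limma called 11 of the 46 members above a filter of 1 TPM with a pseudocount of 1 (5.31% of all genes), 9 with a pseudocount of 0.1 (3.38%) and 14 of 64 with no filter (5.65%). The TPM scale moved the median log2 fold change of all genes to between 0.20 and 0.28 and its calls to 751 higher and 77 lower with a pseudocount of 1, against 892 and 722 by counts, and of its 11 members called 10 were higher. None of the 15 changed direction in any setting in which it could be fitted. The map of settings shows these gains and losses gene by gene.

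**Figure D2:**
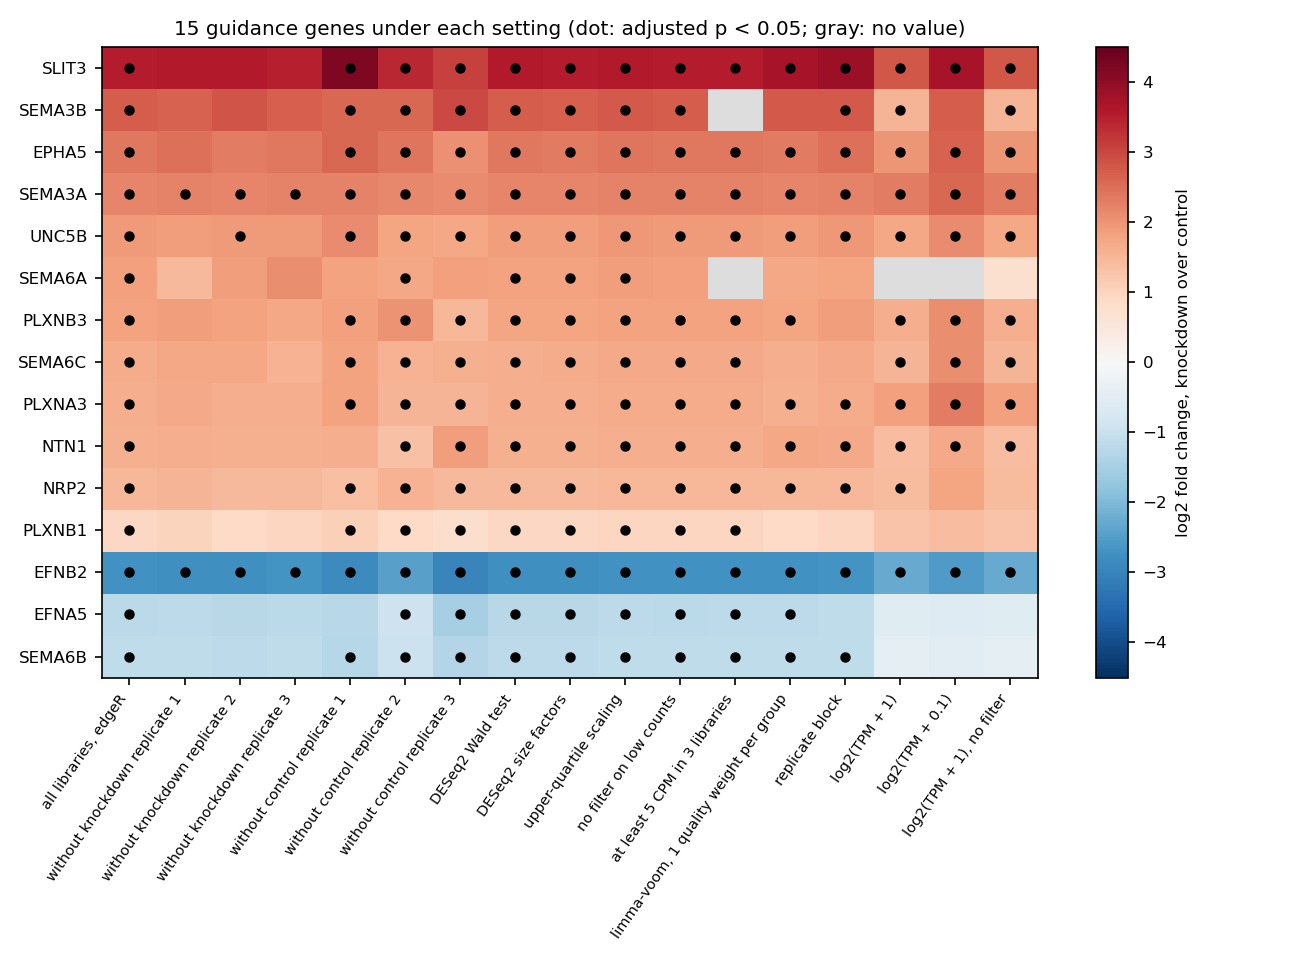
Log2 fold change, knockdown over control (colour), of the 15 called guidance genes (rows) in the fit of all libraries and in 16 other settings (columns); a dot marks an adjusted p under 0.05 and gray marks a setting that gave no value. SEMA3A and EFNB2 carry a dot in every column, while most other genes lose it in the 3 columns that leave out a knockdown library.

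Promoter windows are shown for 4 called genes that the promoter table holds, to set genes that rose (SLIT3, NRP2) beside genes that fell (EFNB2, EFNA5). Each window runs 5′ to 3′ on the gene's strand over 250 bases before and 50 after the start given by RefSeq (GRCh38.p14): SLIT3 at chr5:169301090-169301389 (minus strand), NRP2 at chr2:205682251-205682550 (plus), EFNB2 at chr13:106535613-106535912 (minus) and EFNA5 at chr5:107670888-107671187 (minus). Capitals mark GC boxes, the letters GGGCGG or their reverse complement CCGCCC, to which SP-family factors are known to bind.
SLIT3: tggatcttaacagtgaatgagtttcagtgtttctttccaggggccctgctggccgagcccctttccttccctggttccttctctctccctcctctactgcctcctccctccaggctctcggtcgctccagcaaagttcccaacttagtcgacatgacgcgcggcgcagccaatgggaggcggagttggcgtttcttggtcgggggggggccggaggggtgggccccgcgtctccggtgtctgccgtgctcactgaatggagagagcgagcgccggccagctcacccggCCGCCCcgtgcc
NRP2: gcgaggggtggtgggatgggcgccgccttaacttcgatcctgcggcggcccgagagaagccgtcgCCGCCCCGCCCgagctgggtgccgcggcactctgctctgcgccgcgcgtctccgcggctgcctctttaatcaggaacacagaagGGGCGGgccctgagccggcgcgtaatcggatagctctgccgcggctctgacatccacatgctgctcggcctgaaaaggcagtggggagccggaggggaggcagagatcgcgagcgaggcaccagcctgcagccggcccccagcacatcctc
EFNB2: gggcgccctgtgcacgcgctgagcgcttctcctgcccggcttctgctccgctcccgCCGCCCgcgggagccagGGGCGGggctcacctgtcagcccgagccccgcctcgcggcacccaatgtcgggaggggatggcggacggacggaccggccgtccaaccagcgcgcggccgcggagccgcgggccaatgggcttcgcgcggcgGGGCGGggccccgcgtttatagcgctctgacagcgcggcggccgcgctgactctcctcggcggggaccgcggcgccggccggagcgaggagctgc
EFNA5: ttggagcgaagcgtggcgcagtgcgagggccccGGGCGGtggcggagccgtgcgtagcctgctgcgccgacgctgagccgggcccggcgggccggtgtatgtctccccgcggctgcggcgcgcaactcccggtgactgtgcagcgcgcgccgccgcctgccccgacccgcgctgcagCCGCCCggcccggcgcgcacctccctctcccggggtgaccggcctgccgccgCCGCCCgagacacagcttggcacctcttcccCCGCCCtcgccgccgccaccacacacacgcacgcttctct
The windows hold 1 GC box in SLIT3, 3 in NRP2 (a pair of them sharing 1 base), 3 in EFNB2 and 4 in EFNA5, so both directions of change are found with several boxes. Their GC content is 64.7% in SLIT3, 70.0% in NRP2, 78.7% in EFNB2 and 78.0% in EFNA5. The median is 66.7% over the 84 windows of tested members and 58.7% over the 35116 windows of the table. Of the 61 tested members, 53 matched the table, and 49 of these (92.5%) held a GC box, against 74.0% of the 12017 tested genes that matched and 45.0% of all windows. Shares of windows, here and below, count single windows, and a gene may have more than 1, so their unit differs from shares of genes. Matched members included 8 of the genes that rose and 2 of those that fell, and all 10 held one.
The TATA letters TATAAA, searched on both strands like every motif here, occurred in 3 of the 53 members (5.66%), against 9.09% of tested genes and 11.5% of windows, and EFNB2 was the only one of the 10 matched called genes to hold them. The core of the hypoxia response element, ACGTG, occurred in 13 members (24.5%), against 31.2% of tested genes and 21.4% of windows. The AP-1 element TGANTCA occurred in 1 member (1.89%), against 7.39% of tested genes and 7.71% of windows. Matches to different motifs shared no base in the 4 windows shown.

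Of the class 3 semaphorins, which are secreted, 2 of 6 tested rose and none fell in edgeR (8.31% of all genes called). SEMA3A (ENSG00000075213, chr7:83955777-84492724, GRCh38), which repels axons through neuropilin-1 and class A plexins, had 77.3, 77.9 and 76.8 CPM in the knockdown libraries, against 18.4, 16.1 and 15.4 CPM in the controls. All 3 knockdown libraries agreed within 2 CPM and stood far above every control. The fitted difference was 4.64-fold higher (log2 2.21, SE 0.137, edgeR adjusted p = 0.000981), the smallest p among the members. SEMA3B (chr3:50267558-50277546), a ligand of both neuropilins from a chromosome 3 region often lost in cancers, had 5.68, 4.35 and 5.32 CPM in the knockdown libraries, against 0.699, 0.578 and 1.07 CPM in the controls. The groups did not overlap, and the fitted difference was 6.63-fold (log2 2.73, SE 0.391, edgeR adjusted p = 0.0112). The most abundant semaphorin, SEMA3C (chr7:80742538-80922359), another neuropilin ligand, had 114, 113 and 109 TPM in the knockdown libraries, against 52.6, 22.7 and 88.5 TPM in the controls. Control library 2 was low for it and the groups did not overlap, yet the call was missed with all libraries (281 ± 12.4 CPM in knockdown and 153 ± 86.6 CPM in control, SD, n = 3 each; log2 0.87, edgeR adjusted p = 0.256), and without control library 2 it passed (1.39-fold higher, adjusted p = 0.0131). SEMA3F, which signals through neuropilin-2, averaged 35.8 ± 1.46 CPM in knockdown and 47.6 ± 27.4 CPM in control, with a log2 fold change of -0.41 that turned to 0.12 without control library 2. SEMA3D, SEMA3E and SEMA3G were under 1.1 CPM in every library. SEMA3G did not pass the filter on low counts, and the other 2 had log2 fold changes of 0.19 (SE 1.16) and 0.11 (SE 1.45).

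Class 6 semaphorins, which span the membrane and bind class A plexins, moved in both directions: 2 of 4 rose, 1 fell and 1 missed the threshold, and in none of the 4 did the groups overlap. Over all genes tested, 8.31% were called and 37.6% had groups that did not overlap. SEMA6B (ENSG00000167680, chr19:4542593-4559808) had 51.8, 53.8 and 52.7 CPM in knockdown libraries, against 108, 149 and 96.4 CPM in controls. Every control exceeded every knockdown library, by 2.23-fold in the fit (log2 -1.16, SE 0.181, edgeR adjusted p = 0.0141). SEMA6C (chr1:151131685-151146664) had 9.38, 9.19 and 11.7 CPM in knockdown libraries, against 3.83, 2.68 and 2.88 CPM in controls, 3.2-fold higher (log2 1.68, SE 0.267, edgeR adjusted p = 0.0146). SEMA6A (chr5:116443616-116574934) had 5.61, 3.57 and 2.43 CPM in knockdown libraries, against 1.14, 0.946 and 1.15 CPM in controls, 3.57-fold higher (log2 1.84, SE 0.44, edgeR adjusted p = 0.0462). For SEMA6A it was the knockdown libraries that differed among themselves, with library 1 more than 2 times library 3. SEMA6D averaged 2.58 ± 0.668 CPM in knockdown and 0.273 ± 0.403 CPM in control (SD, n = 3 each; edgeR adjusted p = 0.112), and passed without control library 2 (5.57-fold higher, adjusted p = 0.0414, against 8.47-fold with all libraries) and without control library 1 (adjusted p = 0.0285), where the 2 controls left had 0 and 1 counts. Without any 1 knockdown library, SEMA3B, SEMA6A, SEMA6B and SEMA6C missed the threshold (adjusted p between 0.0763 and 0.247), and SEMA6A also missed it without control library 1 (adjusted p = 0.0744) or 3 (adjusted p = 0.0637). On the TPM scale SEMA6B was no longer called (28.6 ± 0.885 TPM in knockdown and 40.4 ± 10.4 TPM in control; limma adjusted p between 0.328 and 0.391).

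The remaining semaphorins, those of classes 4, 5 and 7, gave no call among 8 tested with edgeR (1 was higher at an unadjusted p under 0.05, and DESeq2 called 1 and limma-voom 0). SEMA4B, the most abundant of class 4, averaged 64.3 ± 2.99 TPM in knockdown and 48.5 ± 34.2 TPM in control, and by counts its log2 fold change was 0.01, turning to -0.03 with DESeq2 size factors. Control library 2 was its high library, and without it SEMA4B was 1.57-fold higher (edgeR adjusted p = 0.00631). SEMA4C, a ligand of plexin-B2, averaged 44.8 ± 0.272 CPM in knockdown and 41.8 ± 4.27 CPM in control. SEMA4D, the ligand of plexin-B1, averaged 14.1 ± 1.71 CPM in knockdown and 15.9 ± 4.75 CPM in control, and its log2 fold change of -0.17 turned to between 0.26 and 0.30 on the TPM scale. SEMA4F averaged 22.1 ± 1.62 CPM in knockdown and 18.8 ± 2.56 CPM in control, and SEMA4A 1.45 ± 0.288 CPM in knockdown and 0.842 ± 0.202 CPM in control (SD, n = 3 each). SEMA7A, a lipid-anchored semaphorin that binds plexin-C1 and integrins, averaged 5.02 ± 0.407 CPM in knockdown and 3.74 ± 0.824 CPM in control. SEMA5B averaged 1.54 ± 0.215 CPM in knockdown and 0.419 ± 0.223 CPM in control, with no overlap (log2 1.82, SE 0.598, edgeR adjusted p = 0.104), and passed without control library 2 (adjusted p = 0.0479). SEMA5A averaged 1.0 ± 0.563 CPM in knockdown and 0.357 ± 0.413 CPM in control. SEMA4G, removed by the filter, had 24, 14 and 10 counts in the knockdown libraries, against 1, 0 and 0 in the controls (edgeR without the filter, adjusted p = 0.0737).

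**Figure D3:**
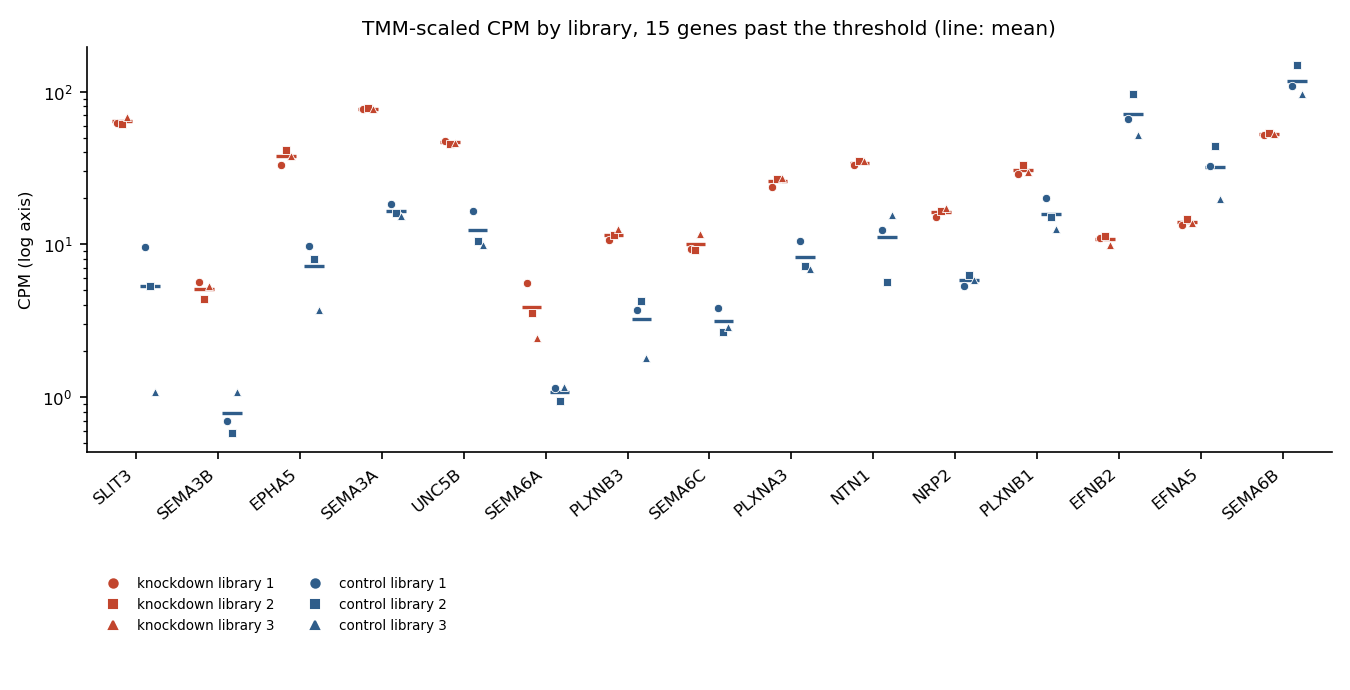
TMM-scaled CPM (log axis) in each library for the 15 guidance genes past the threshold, knockdown libraries in red left of controls in blue; marker shapes give the library number and lines the group means. No gene has overlapping groups, and the controls spread widest for SLIT3 at 9.53, 5.36 and 1.07 CPM.

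Receptors of the semaphorins included 4 of the genes that rose. NRP2 (ENSG00000118257, chr2:205681990-205798133), a co-receptor for class 3 semaphorins and for VEGF-C, had 15.2, 16.5 and 17.2 CPM in knockdown libraries, against 5.3, 6.31 and 5.84 CPM in controls. Both groups were tight and well apart, at 2.8-fold (log2 1.49, SE 0.193, edgeR adjusted p = 0.00825). NRP1, the paralogous receptor that also binds VEGF-A, averaged 10.1 ± 0.319 CPM in knockdown and 12.6 ± 9.8 CPM in control, where single controls ran between 3.29 and 22.8 CPM. Its log2 fold change of -0.33 (SE 0.565) turned to 0.39 without control library 2 and to between 0.14 and 0.22 on the TPM scale. NRP2 was the more abundant neuropilin by length-scaled level, at 7.58 ± 1.51 TPM in knockdown, but not in control, where it had 2.32 ± 1.3 TPM and NRP1 3.75 ± 2.76 TPM.

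Plexins, the signalling receptors, gave 3 of 8 tested that rose and none that fell (edgeR; 6 were higher and 0 lower at an unadjusted p under 0.05, and DESeq2 called 6 higher), and for 6 of 8 the knockdown libraries lay wholly above the controls. Over all genes tested, 4.59% rose and 21.9% lay wholly above. PLXNA4 is outside the rule and not among these 8. PLXNA3 (chrX:154458281-154477779), a co-receptor with neuropilins, had 23.8, 26.8 and 27.0 CPM in knockdown libraries, against 10.5, 7.2 and 6.91 CPM in controls, 3.14-fold higher (log2 1.65, SE 0.216, edgeR adjusted p = 0.00842). PLXNB3 (chrX:153764196-153779346), a receptor of SEMA5A, had 10.6, 11.4 and 12.6 CPM in knockdown libraries, against 3.72, 4.26 and 1.81 CPM in controls, 3.5-fold higher (log2 1.81, SE 0.339, edgeR adjusted p = 0.0232). These 2 genes lie 679 kb apart on chromosome X. PLXNB1 (chr3:48403854-48430051) had 28.8, 33.2 and 29.9 CPM in knockdown libraries, against 20.01, 14.98 and 12.6 CPM in controls, 1.92-fold higher (log2 0.94, SE 0.203, edgeR adjusted p = 0.0332). On the TPM scale PLXNB1 missed the threshold (limma adjusted p between 0.0725 and 0.092), NRP2 missed it in 2 of 3 settings (adjusted p between 0.041 and 0.0589), and without any 1 knockdown library NRP2, PLXNA3, PLXNB1 and PLXNB3 all missed it (edgeR adjusted p between 0.0674 and 0.172). The plexin of highest level, PLXNB2 (chr22:50274979-50307627), a receptor of class 4 semaphorins, had 51.0, 45.5 and 47.6 TPM in knockdown libraries, against 21.2, 46.1 and 38.6 TPM in controls, which overlapped. By counts its difference was small (log2 0.19, SE 0.13, edgeR adjusted p = 0.399). It passed without control library 2 (1.21-fold higher, adjusted p = 0.0352).

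Next to the threshold stood PLXNA2, at 14.4 ± 1.79 CPM in knockdown and 5.0 ± 2.3 CPM in control (log2 1.51, SE 0.373, edgeR adjusted p = 0.0503). PLXND1, known in endothelium as the receptor of SEMA3E, averaged 60.1 ± 1.76 CPM in knockdown and 42.0 ± 4.57 CPM in control (log2 0.52, SE 0.135, edgeR adjusted p = 0.0584). PLXNC1, the receptor of SEMA7A, averaged 14.8 ± 0.856 CPM in knockdown and 7.98 ± 2.42 CPM in control (log2 0.89, SE 0.265, edgeR adjusted p = 0.0804). In these 3 genes no control reached a knockdown library, and each passed without control library 2, with adjusted p of 0.0198 for PLXNA2, 0.00784 for PLXND1 and 0.0176 for PLXNC1. PLXNA2 also passed without control library 3 (2.23-fold higher, adjusted p = 0.0287). PLXNA1, the highest by TPM of the 3 class A plexins tested, averaged 129 ± 5.44 CPM in knockdown and 140 ± 20.8 CPM in control. Its log2 fold change of -0.11 turned to between 0.42 and 0.43 on the TPM scale.

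Netrin-1 and one of its receptors rose together. NTN1 (ENSG00000065320, chr17:9021542-9244000), a secreted laminin-related cue, had 32.8, 35.1 and 34.9 CPM in knockdown libraries, against 12.5, 5.68 and 15.6 CPM in controls. Control library 2 was the lowest, and the groups did not overlap (3.06-fold higher, log2 1.62, SE 0.337, edgeR adjusted p = 0.0301). UNC5B (ENSG00000107731, chr10:71212570-71302864), the UNC5 receptor best known from vessels, had 47.8, 45.7 and 46.4 CPM in knockdown libraries, against 16.6, 10.5 and 9.96 CPM in controls. It was 3.76-fold higher (log2 1.91, SE 0.223, edgeR adjusted p = 0.00575), with control library 1 the nearest control. UNC5B had 9.52, 9.24 and 9.04 TPM in knockdown libraries, against 2.09, 2.01 and 2.04 TPM in controls. By mean TPM it led the netrin group in knockdown libraries, while in controls NTN4 (3.4 TPM) and NTN1 (2.46 TPM) stood above it. NTN1 missed the threshold without any 1 knockdown library (adjusted p between 0.136 and 0.144) and without control library 1 (adjusted p = 0.0663). UNC5B missed it without knockdown library 1 (adjusted p = 0.0556) or 3 (adjusted p = 0.0533) and held it without library 2 (adjusted p = 0.0485).

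UNC5C (chr4:95162504-95549206), another netrin receptor, was removed by the filter: it had 38, 32 and 8 counts in the knockdown libraries and 0 in every control. Its pooled level was at least 12.4-fold higher in knockdown, set against a floor of 3 counts over the control group, and without the filter edgeR gave an adjusted p of 0.0617. The floor covers counting error only. UNC5A, the third of the family in the count table, averaged 4.45 ± 0.459 CPM in knockdown and 5.88 ± 0.465 CPM in control, below every control but short of the threshold (log2 -0.40, SE 0.254, edgeR adjusted p = 0.37). NTN5 averaged 2.93 ± 0.324 CPM in knockdown and 0.503 ± 0.451 CPM in control (log2 2.48, SE 0.712, edgeR adjusted p = 0.0738) and passed without control library 2 (3.94-fold higher, adjusted p = 0.0228) or 1 (11.5-fold higher, adjusted p = 0.036), against 5.58-fold with all libraries. NTN4, a netrin of basement membranes, averaged 12.6 ± 1.4 CPM in knockdown and 8.54 ± 6.56 CPM in control, with control library 3 at 1.32 CPM. UNC5D, DCC, NTN3 and EPHA8 had values in the TPM table only: DCC, the main attractive netrin receptor, and NTN3 were listed at 0 in all 6 libraries, UNC5D reached 0.0113 TPM in 1 knockdown library, and EPHA8 had 0.116, 0.102 and 0 TPM in knockdown libraries and 0 in controls.

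Among slits and their receptors, SLIT3 (ENSG00000184347, chr5:168661733-169301129), a secreted ROBO ligand, had the largest fold change of the 15 called members. It had 62.4, 61.6 and 68.1 CPM in knockdown libraries, against 9.53, 5.36 and 1.07 CPM in controls. Every knockdown library was more than 6 times the highest control, while the controls themselves differed 8.9-fold between highest and lowest. The fit gave an 11.6-fold difference (log2 3.54, SE 0.595, edgeR adjusted p = 0.0168). Leaving out control library 1, its highest control, moved the fold to 18.3, and leaving out control library 3 moved it to 8.4. The call was lost without any 1 knockdown library (adjusted p between 0.0909 and 0.102). SLIT2 averaged 2.02 ± 1.08 CPM in knockdown and 0.478 ± 0.828 CPM in control, and SLIT1 1.27 ± 0.421 CPM in knockdown and 1.44 ± 0.746 CPM in control, with groups that overlapped in both. SLIT2 passed without control library 1 (edgeR adjusted p = 0.0387), the only control with counts of it.

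No ROBO receptor passed in edgeR with all libraries; at an unadjusted p under 0.05, 1 was higher and 1 lower, DESeq2 called those numbers too, and limma-voom called 1 higher. ROBO1 (ENSG00000169855, chr3:78597240-79767815), had 63.6, 47.3 and 51.2 TPM in knockdown libraries, against 16.6, 5.91 and 40.2 TPM in controls. Its mean was the highest of the ROBO genes in knockdown libraries, whereas in controls ROBO3 averaged 24.6 TPM and ROBO1 20.9 TPM. By counts ROBO1 averaged 166 ± 1.56 CPM in knockdown and 87.3 ± 52.6 CPM in control, with control library 2 lowest at 26.7 CPM (log2 0.92, SE 0.483, edgeR adjusted p = 0.279). ROBO2 (chr3:75906695-77649964), its neighbour 947 kb away, had 2.11, 3.41 and 2.97 CPM in knockdown libraries, against 28.9, 1.26 and 52.2 CPM in controls. Control libraries 1 and 3 lay far above the knockdown libraries and control library 2 below them (log2 -3.27, SE 1.03, edgeR adjusted p = 0.0927). Without control library 2, ROBO2 was 14.2-fold lower (adjusted p = 0.000272) and ROBO1 1.41-fold higher (adjusted p = 0.00277). ROBO3, which in mouse commissural axons lets growing axons cross the midline, averaged 50.3 ± 4.41 CPM in knockdown and 26.3 ± 11.8 CPM in control (log2 0.94, SE 0.296, edgeR adjusted p = 0.094), and it passed without control library 2 (2.6-fold higher, adjusted p = 0.00051). ROBO4, the endothelial member 2.22 kb from ROBO3, averaged 0.456 ± 0.182 CPM in knockdown and 1.36 ± 0.921 CPM in control, below every control (log2 -1.57, SE 0.689, edgeR adjusted p = 0.201).

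**Figure D4:**
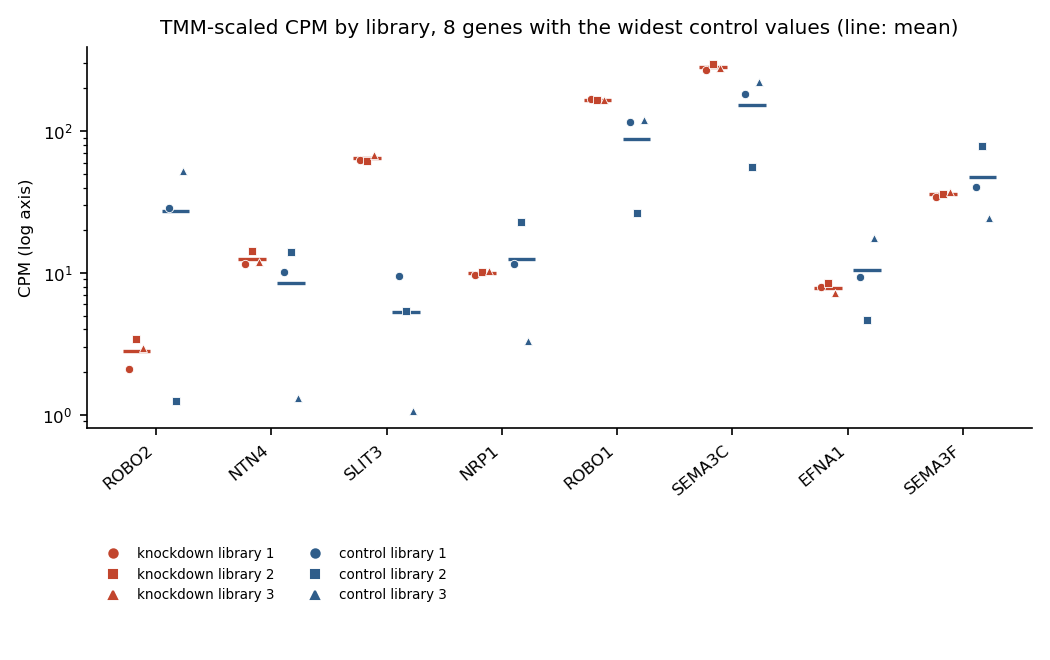
TMM-scaled CPM (log axis) in each library for the 8 guidance genes of mean CPM of at least 5 whose controls differed most between highest and lowest, knockdown libraries in red left of controls in blue; lines are group means. The controls differ 41.4-fold for ROBO2 and 3.18-fold for SEMA3F, while the knockdown libraries of these 8 genes stay within 1.62-fold.

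Spread among the controls was the common feature of genes such as ROBO1, ROBO2 and SEMA3C. Over the tested members, the median ratio of highest to lowest library was 1.2 among knockdown libraries and 1.99 among controls, against 1.18 among knockdown libraries and 1.8 among controls over all genes tested (genes with a count in every library of the group). After ROBO2 the widest control ratios were 10.7 for NTN4, 8.9 for SLIT3, 6.93 for NRP1, 4.51 for ROBO1, 3.96 for SEMA3C and 3.81 for EFNA1. Control library 2 was the low library for ROBO1, ROBO2, SEMA3C and EFNA1 and the high one for NTN4, NRP1 and SEMA3F.

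Ephrins, the membrane-bound ligands of EPH receptors, were the family in which calls were lower only: 2 of 8 fell and none rose, against 3.72% of all genes that fell and 4.59% that rose, with 0 ephrins higher also at an unadjusted p under 0.05 in edgeR, DESeq2 and limma-voom. EFNB2 (ENSG00000125266, chr13:106489731-106535662), a transmembrane ligand of EPHB4 and other EPHB receptors that marks arterial endothelium, had 11.0, 11.3 and 9.92 CPM in knockdown libraries, against 65.8, 96.9 and 52.3 CPM in controls. The lowest control was more than 4 times the highest knockdown library, and the fitted difference was 6.66-fold lower (log2 -2.74, SE 0.245, edgeR adjusted p = 0.00274). EFNB2 had 3.12, 3.28 and 2.63 TPM in knockdown libraries, against 12.8, 29.9 and 15.9 TPM in controls. By mean TPM it was the most abundant ephrin in controls, whereas in knockdown libraries EFNA3 (9.67 TPM), EFNA4 (8.55), EFNA5 (8.42), EFNB1 (8.2) and EFNA1 (7.77) stood above it. EFNA5 (ENSG00000184349, chr5:107376889-107670895), a lipid-anchored ligand of EPHA receptors, had 13.4, 14.6 and 13.8 CPM in knockdown libraries, against 32.4, 44.2 and 19.7 CPM in controls. The groups did not overlap, at 2.31-fold lower (log2 -1.21, SE 0.282, edgeR adjusted p = 0.0431). EFNA5 missed the threshold without any 1 knockdown library (adjusted p between 0.17 and 0.194), without control library 1 (adjusted p = 0.0699) and on the TPM scale (limma adjusted p between 0.296 and 0.318).

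The other 6 ephrins were not called and their groups overlapped. EFNA4 averaged 7.11 ± 0.467 CPM in knockdown and 10.6 ± 3.32 CPM in control, EFNA1 7.89 ± 0.665 CPM in knockdown and 10.5 ± 6.58 CPM in control, and EFNA3 11.1 ± 1.24 CPM in knockdown and 9.66 ± 4.11 CPM in control. These 3 genes lie within 71.1 kb of chromosome 1, between 155063731 and 155134857, and their log2 fold changes were -0.57, -0.40 and 0.20. The values for EFNA1 and EFNA3 changed sign when 1 control was left out: EFNA1 to 0.15 without control library 3 and EFNA3 to -0.10 without control library 1. EFNA4 passed without control library 1 (1.84-fold lower, edgeR adjusted p = 0.0498). EFNB1, the X-linked transmembrane ephrin, averaged 19.9 ± 3.17 CPM in knockdown and 19.2 ± 6.88 CPM in control. EFNA2 averaged 3.23 ± 0.473 CPM in knockdown and 2.71 ± 0.427 CPM in control, and EFNB3 stayed under 0.5 CPM in every library.

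EPH receptors, the largest family of receptor tyrosine kinases, gave 1 call among 13 tested (7.69%, against 8.31% of all genes). EPHA5 (ENSG00000145242, chr4:65319563-65670495), a receptor of ephrin-A ligands first studied in brain, had 33.3, 41.6 and 38.1 CPM in knockdown libraries, against 9.71, 8.04 and 3.7 CPM in controls. It was 5.2-fold higher (log2 2.38, SE 0.333, edgeR adjusted p = 0.0105), with the lowest knockdown library more than 3 times the highest control. EPHA5 missed the threshold without any 1 knockdown library (adjusted p between 0.0682 and 0.0768). EPHA5-AS1, which overlaps its exons on the opposite strand, had up to 7.07 TPM in knockdown libraries and 3.2 TPM in controls. EPHA2 (ENSG00000142627, chr1:16124337-16156087), a receptor abundant in many carcinomas, had the highest mean level of the guidance genes over all libraries, at 102, 109 and 106 TPM in knockdown libraries, against 44.2, 81.5 and 67.6 TPM in controls. It stood first in the controls, and second to SEMA3C (112 ± 2.58 TPM) in the knockdown libraries. By counts it averaged 281 ± 2.09 CPM in knockdown and 208 ± 33.0 CPM in control, with no overlap (log2 0.44, SE 0.149, edgeR adjusted p = 0.115). It passed without control library 2 (1.49-fold higher, adjusted p = 0.0017).

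EPHB4 and EPHB2, next in abundance, had small fold changes. EPHB4, the main receptor of EFNB2, averaged 105 ± 2.43 CPM in knockdown and 103 ± 8.55 CPM in control, and its log2 fold change of 0.02 (SE 0.124) turned to -0.00505 with DESeq2 size factors. EPHB2 averaged 68.2 ± 3.62 CPM in knockdown and 64.1 ± 5.62 CPM in control (log2 0.09, SE 0.13, -0.04 without control library 1). EPHA10, a member whose kinase domain lacks residues needed for catalysis, averaged 3.17 ± 0.944 CPM in knockdown and 4.03 ± 1.86 CPM in control. The remaining 8 receptors averaged under 5 CPM in both groups: EPHA4, EPHA1, EPHA7, EPHB1, EPHB3 and EPHB6 had log2 fold changes between 0.52 and 2.07, and EPHA3 and EPHA6 of -2.33 and -1.15. EPHA6 had 5.02 CPM in control library 3 and at most 1.02 CPM in every other library, and its value turned to 1.70 without that control. EPHA3 had 0.149, 0.357 and 0.306 CPM in knockdown libraries, against 0.699, 0 and 3.54 CPM in controls, and its value followed single controls: without control library 2 it passed (7.56-fold lower, edgeR adjusted p = 0.0381), and without control library 3 it was 1.36-fold lower (adjusted p = 0.848).

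**Figure D5:**
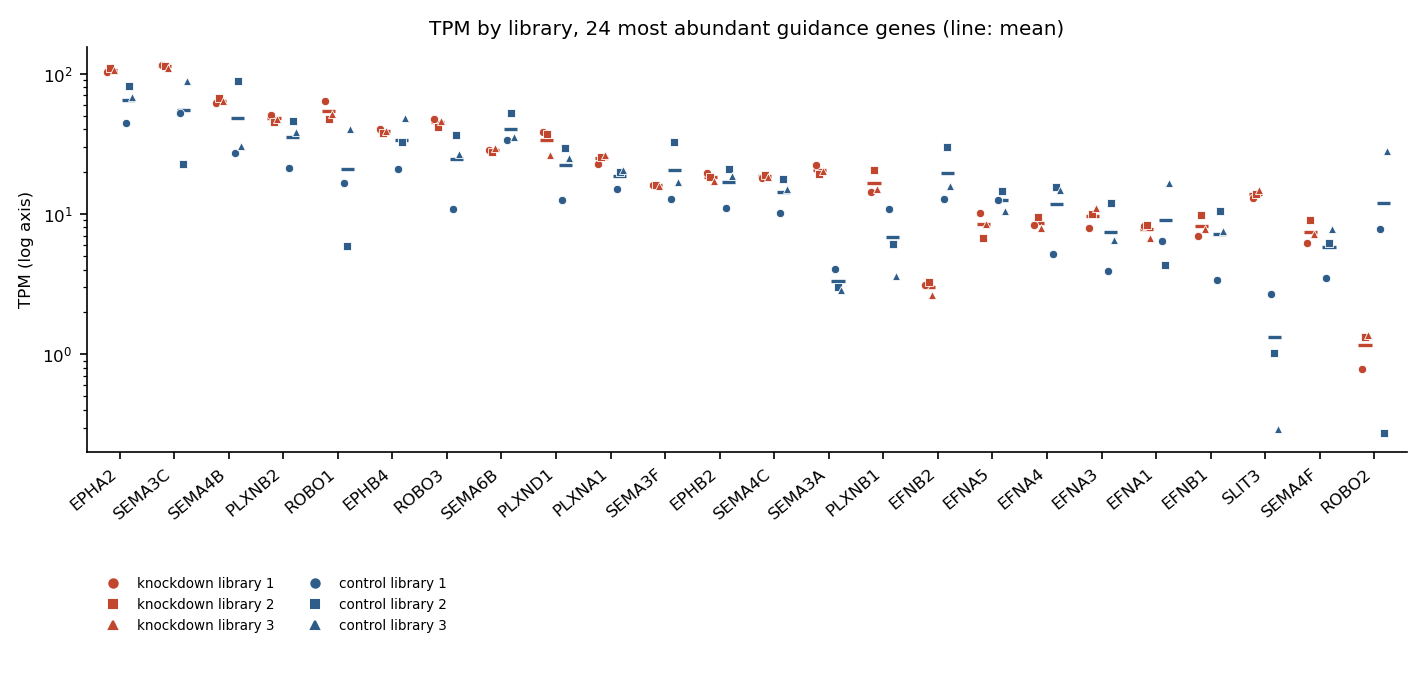
TPM (log axis), the deposited length-scaled level, in each library for the 24 guidance genes of highest mean TPM, knockdown libraries in red left of controls in blue; lines are group means. EPHA2 and SEMA3C stand highest, at 106 and 112 TPM on average in knockdown libraries, against 64.4 and 54.6 TPM in controls, and EFNB2 is among the few whose controls stand wholly above the knockdown libraries.

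By length-scaled level, EPHA2, SEMA3C, SEMA4B, PLXNB2 and ROBO1 came first over all libraries, and EPHB4, ROBO3, SEMA6B, PLXND1 and PLXNA1 followed. Neighbours in this order did not differ beyond their spread in the controls, where EPHA2 averaged 64.4 ± 18.8 TPM, SEMA3C 54.6 ± 33.0 TPM and SEMA4B 48.5 ± 34.2 TPM. Of the called genes, SEMA6B stood highest in this order, at rank 8 of 68. SEMA3A followed at 14, PLXNB1 at 15, EFNB2 at 16, EFNA5 at 17 and SLIT3 at 22, and the others stood between 25 and 50.

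Partners of these receptors outside the rule were read from lists of general pathway knowledge. Of 62 cytoplasmic effectors 61 were tested, and 1 rose and 5 fell (9.84% called, against 8.31% of all genes), with a median log2 fold change of -0.08, against 0.03 over all genes. DPYSL3, a collapsin response mediator protein, rose 2.05-fold (43.3 ± 1.32 CPM in knockdown and 21.1 ± 3.54 CPM in control, edgeR adjusted p = 0.0141). Its relative DPYSL5 fell 2.05-fold (11.3 ± 0.727 CPM in knockdown and 23.1 ± 3.44 CPM in control, edgeR adjusted p = 0.0195). The other effectors that fell were YES1, a SRC-family kinase, by 1.9-fold, ABLIM3, an actin-binding LIM protein, by 9.01-fold, LIMK1, the cofilin kinase, by 1.58-fold and FARP1, a guanine nucleotide exchange factor, by 1.47-fold (edgeR adjusted p between 0.0269 and 0.0476). ABLIM3, at 8.68 ± 0.828 CPM in knockdown and 78.1 ± 66.9 CPM in control, was 4.81-fold lower without control library 2. None of the 61 passed in edgeR without any 1 knockdown library (adjusted p of these 6 between 0.0974 and 0.227; at an unadjusted p under 0.05, 4 or 5 were higher and 7 lower). Without control library 2, 9 rose and 21 fell (49.2% called), where 29.0% of all genes were called. Of 31 co-receptors and further cues 28 were tested, and 1 rose and 1 fell (7.14% called). L1CAM, an adhesion molecule that forms a complex with neuropilin-1, rose 3.37-fold (114 ± 1.72 CPM in knockdown and 33.8 ± 5.39 CPM in control, edgeR adjusted p = 0.00239) and passed whichever library was left out. VEGFC, a growth factor that binds NRP2, fell 2.44-fold (5.58 ± 0.612 CPM in knockdown and 13.7 ± 3.35 CPM in control, edgeR adjusted p = 0.0258) and missed the threshold without any 1 knockdown library (adjusted p between 0.121 and 0.155).

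Reads of overlapping genes may be shared, since the labels do not say how strand was treated in counting. Exons of another annotated gene overlap those of 23 of the 61 tested members and of 8 of the 15 called ones (GENCODE release 29, GRCh38). PLXNA3 overlaps LAGE3 on the opposite strand, which had 54.8 to 58.6 TPM in knockdown libraries and 34.0 to 99.6 TPM in controls. SEMA6A overlaps SEMA6A-AS1, which had 1.91 to 4.43 TPM in knockdown libraries and 1.49 to 5.79 TPM in controls, above SEMA6A itself at 1.19 ± 0.477 TPM in knockdown and 0.327 ± 0.102 TPM in control. The partners of SLIT3, EFNB2, NRP2, PLXNB3 and SEMA3B stayed under 0.8 TPM in every library. SEMA3A, UNC5B, SEMA6B, SEMA6C, NTN1, PLXNB1 and EFNA5 have no such overlap. Of neighbouring members within 1 Mb, SEMA3B rose while SEMA3F, 78.5 kb away, did not pass, and SEMA3A rose while SEMA3E and SEMA3D, 307 and 503 kb away, were near the detection floor in both groups.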

How the data were processed

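RNA was measured in 6 libraries, 3 with GANAB knockdown and 3 control. Libraries were made from 200 ng of TRIzol-extracted RNA with a VAHTS Universal V6 kit, per the labels' protocols. The tools named are fastp, Salmon and DESeq2 and the build GRCh38, per the submitters' processing notes. Their versions and roles, the strand setting and any removal of mouse reads were not stated in these sources. The authors deposited estimated counts per gene, whole as deposited, and TPM values, which they scaled for gene length and library total. Columns headed as knockout were matched to the knockdown labels by group and number. Members and gene lists were chosen with earlier results of these data known.

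From the estimated counts, edgeR 4.0.16 (R 4.3.3) was run on all 19430 genes that filterByExpr kept of 21503, with TMM scaling, a 2-sided quasi-likelihood test without covariates and Benjamini-Hochberg adjustment at 0.05. CPM used TMM library sizes. SEs came from the fold change and the F statistic. The fit was run on simulated counts of known fold change, in which both groups had the same spread, unlike these libraries. That check covers the fold changes and cannot speak for the calls under unequal spread. Alternatives were DESeq2 1.42.0, its size factors, upper-quartile scaling, no filter, at least 5 CPM in 3 libraries, limma-voom (limma 3.58.1) with 1 quality weight per group, the replicate number as a block, limma on log2(TPM + 1) and log2(TPM + 0.1), and each library left out. A pseudocount shrinks the log2 TPM fold changes of low genes, more with 1 than with 0.1. All members are named; those past the threshold and the most abundant of each family have values per library. Of the lists, at most the 6 called genes of smallest p in each direction are named. Promoters came from RefSeq (GRCh38.p14) and coordinates from GENCODE release 29. Depth was 11737837 to 40039584 counts per library. Protein sequences and their glycosylation sites were planned and were not used here.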

Additional observations from a re-analysis of the deposited data

How the results depend on the processing

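Of 1066 fold changes of single genes recomputed under the alternatives, 872 kept direction and side of the threshold, 36 passed it newly, 117 missed it and 41 changed sign, none of these 41 for a called gene. DESeq2 called 1853 genes higher and 1802 lower of all genes, 19 members higher, 4 effectors higher and 8 lower, and 4 co-receptors higher and 3 lower. The number of effectors called higher was 2 with DESeq2 size factors, 2 with upper-quartile scaling, 2 with at least 5 CPM in 3 libraries and 3 with limma-voom, which called 2 co-receptors higher and 2 lower. On log2(TPM + 1), 77 genes, 1 member, 0 effectors and 0 co-receptors were called lower and 2 effectors higher. On log2(TPM + 0.1), calls were 470 genes higher and 56 lower, 1 member lower, 0 effectors higher, 0 effectors lower and 0 co-receptors lower (at an unadjusted p under 0.05, limma had 7 effectors higher and 2 lower). On log2(TPM + 1) with no filter, 80 genes, 1 member, 0 effectors and 0 co-receptors were called lower and 2 effectors higher. With the replicate block, edgeR called 352 genes higher and 214 lower, 10 members (8 higher, 2 lower), 1 effector lower and 0 co-receptors lower; the cause was not tested. The replicate numbers were not taken to pair the samples, as same-numbered libraries deviated with correlations of 0.00223, 0.0171 and 0.0218, each highest for its own number but under 0.1. Among called members, EFNA5, PLXNB1, PLXNB3, SEMA6A and SEMA6C lost the call under the block, and PLXNB1, SEMA3B, SEMA6A and SEMA6C with limma-voom. SEMA6A also lost it in edgeR with no filter and in limma on log2(TPM + 1) with no filter (adjusted p = 0.0814). It held the call in 4 of 13 other settings. SEMA3B lost it on log2(TPM + 0.1) (limma adjusted p = 0.0531) and GANAB there too (limma adjusted p = 0.0553).

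Log2 fold changes that changed sign were, for EPHA6, 0.81 with limma-voom, 0.54 with the block and 0.038 on log2(TPM + 0.1). For EPHB4 they were -0.00417 with DESeq2 and -0.00505 with its size factors, and for SEMA4B -0.0254 with DESeq2 and -0.0257 with its size factors. EFNA1 had 0.00457 on log2(TPM + 0.1) and EFNB3 -0.24 with limma-voom. NRP1 had 0.0109 with the block, 0.14 on log2(TPM + 1) with or without the filter and 0.22 on log2(TPM + 0.1). PLXNA1 had 0.42, 0.42 and 0.43 and SEMA4D 0.26, 0.26 and 0.30 on the same scales. The cause of these changes was not tested.

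Leaving out 1 library gave 52 to 2802 genes called higher and 9 to 2840 lower over all genes, 1 to 24 members higher and 1 to 5 lower, 0 to 9 effectors higher and 0 to 21 lower, and 1 to 6 co-receptors higher and 0 to 5 lower. The lowest counts came without a knockdown library and the highest without control library 2. For members that changed sign when 1 library was left out, log2 fold changes ran from -1.72 to 1.70 for EPHA6, -0.0449 to 0.12 for EPHB2, -0.0617 to 0.0571 for EPHB4, -0.00753 to 1.46 for EPHB6, -0.75 to 0.15 for EFNA1, -0.10 to 0.60 for EFNA3, -0.24 to 0.37 for EFNB1, -0.81 to 0.39 for NRP1, -0.51 to 1.66 for SEMA3D, -0.66 to 6.62 for SEMA3E, -0.77 to 0.12 for SEMA3F, -0.32 to 0.65 for SEMA4B, -0.0315 to 0.18 for SEMA4C, -0.38 to 0.0814 for SEMA4D and -0.48 to 0.24 for SLIT1. A count of 3 in control library 3 is worth 0.247 CPM, so values of members near that level rest on a few counts.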
